A study of Mus musculus with 4 samples.

Results

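Intronless genes are transcribed without splicing. In the deposited count table of CD4+CD8+ double-positive (DP) thymocytes, 173 genes of 56239 were taken as expressed intronless genes. A member had a single exon entry, lay on an autosome and had at least 100 counts summed over the 4 libraries. Predicted gene models, RIKEN clones, named pseudogene models, replication-dependent and linker histone genes and T cell receptor segments were left out by their symbols. The members were thus selected on counts summed over both genotypes. At their KO level alone 12 members would have missed that minimum, and at their WT level alone 2. Of 2964 single-exon genes passing the symbol and chromosome rules, 2092 had no count and 699 had 1 to 99 counts. Just inside the threshold lay Nrarp and AC130718.2 with 104 counts each and Rnf223 with 106, and just outside lay AC124512.1 with 99, AI429214 with 97 and Rpl32l with 96. The comparison set was 10165 multi-exon genes under the same chromosome, count and symbol rules.

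The study compared DP thymocytes sorted from the thymus of C57BL/6 mice that carried floxed Chaf1b alleles without Cre (WT, CHAF1bfloxp/floxp) or with Cre under Cd4 control (KO, Cd4-cre;CHAF1bfloxp/floxp). Both groups carried the floxed alleles, and only KO mice carried Cre, so an effect of Cre itself and of the deletion cannot be told apart. There were 2 libraries per genotype; the labels give neither age nor the number of mice per library. Chaf1b encodes a subunit of chromatin assembly factor 1, which deposits histones on newly copied DNA.

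Most mammalian genes carry introns, and splicing helps export and stabilise their transcripts. Intronless coding genes include rapidly induced factors such as Jun, single-exon receptors, and retrocopies, which arose when a spliced mRNA was copied back into the genome. Small nucleolar RNAs (snoRNAs) and many microRNAs (miRNAs) are also encoded without introns of their own, usually inside the introns of a host gene, and are trimmed out of its primary transcript. snoRNAs guide chemical modification of ribosomal RNA, and C/D-box snoRNAs carry the conserved C and D boxes near their ends while H/ACA snoRNAs end in an ACA box.

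Of the 6 snoRNA members 4 are shown, because these genes were lower in KO while the host genes of those inside introns were higher. In the C/D-box genes the capitals mark the C box TGATGA and the D box CTGA where these exact letters were found near the ends, and in Snora31 they mark the ACA box. Sequences are GENCODE M21 transcripts on GRCm38, 5′ to 3′.
Snord72 (chr15:5118404-5118484, plus strand, in an intron of Rpl37): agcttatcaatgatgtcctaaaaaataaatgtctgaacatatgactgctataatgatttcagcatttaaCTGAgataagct
Rnu73b (chr3:86140618-86140688, minus strand, in an intron of Rps3a1): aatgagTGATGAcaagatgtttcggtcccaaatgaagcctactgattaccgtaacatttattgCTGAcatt
Snora31 (chr14:75847905-75848034, plus strand, in an intron of Tpt1): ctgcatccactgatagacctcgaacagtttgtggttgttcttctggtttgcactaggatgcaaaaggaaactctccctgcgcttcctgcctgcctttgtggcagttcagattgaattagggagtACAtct
Snord104 (chr11:106500993-106501062, plus strand, overlapping no other gene of the table): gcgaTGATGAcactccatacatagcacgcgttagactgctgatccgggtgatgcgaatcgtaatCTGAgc

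All 12 miRNA members matched a mature sequence in RefSeq (GRCm38.p6). Those of Mir186, Mir7-1 and Mir6973a are shown because their genes had the lowest KO values among the miRNA members relative to WT. The seed, bases 2 to 8, is in capitals, and no seed is shared among these 3 genes.
mmu-miR-186-5p (chr3:157544285-157544306, plus strand): cAAAGAAUucuccuuuugggcu
mmu-miR-7a-5p (chr13:58392841-58392863, minus strand): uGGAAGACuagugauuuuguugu
mmu-miR-6973a-5p (chr17:35194977-35194998, plus strand): uACGGUGGgagggguggaguug

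The libraries held 21068760 to 27369874 counts. Chaf1b stood at 27.9 and 31.7 CPM (counts scaled to library size) in WT but 12.2 and 14.8 CPM in KO. In both genotypes replicate 1 was female and replicate 2 male by Xist and Ddx3y. KO replicate 1 stood apart, with 3.30% of its counts on mitochondrial genes against 1.33% to 2.03% in the other libraries, so results are also given without it. All 12 listed DP thymocyte markers were measured and 0 passed the threshold. The 10 mature single-positive T cell markers summed to 321 and 308 CPM in WT and 426 and 384 CPM in KO, and Ly6c1 passed (log2 fold change 2.93, edgeR adjusted p = 0.00397 with the replicate term). Of the other listed markers Gzma (1.06), Tcrg-C2 (2.21) and the B cell gene Cd79b (0.76) rose in the same fit. The 10 NK and gamma-delta T cell markers summed to 23.7 to 29.2 CPM in WT and 41.1 to 67.0 CPM in KO, with Klrd1 and Ncr1 at 0 counts in every library. Macrophage and granulocyte markers summed to 14.6 to 21 CPM, and 8 liver transcripts to 383 and 428 CPM in the female libraries against 84.5 and 8.84 CPM in the male libraries. The part of these differences in the results below was not tested, and in bulk RNA fewer cells of a type and less RNA per cell cannot be told apart.

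Under the rule of a single exon entry, intronless genes took a share of all counts that overlapped between the genotypes. It was 0.667% and 0.662% in WT replicates 1 and 2 and 0.665% and 0.681% in KO replicates 1 and 2, and the exact (Clopper-Pearson) 95% intervals together spanned 0.659% to 0.685%. The difference between the genotype means, 0.0089 percentage points, was smaller than the SD of the KO libraries, 0.011. Of counts on autosomal genes alone, which leaves out mitochondrial counts, the share was 0.697% and 0.6915% in WT and 0.7101% and 0.7159% in KO. Both KO libraries then lay above both WT libraries, and the difference of 0.019 percentage points was larger than the SD in either genotype, 0.0038 in WT and 0.0041 in KO. The direction depended on the rule. With overlapping or adjoining exon entries merged first (241 genes), the share of all counts was 1.181% and 1.137% in WT and 1.094% and 1.116% in KO. Of autosomal counts it was 1.235% and 1.188% in WT and 1.167% and 1.172% in KO. By both measures both KO libraries then lay below both WT libraries. Members were shorter than multi-exon genes, with a median exon length of 1902 against 4621 bases, and had a median of 9.0 against 38.6 CPM. Per kilobase of exon the medians were closer, at 7.7 and 8.48 CPM per kb. The median difference between the KO replicates, as a size on the log2 scale, was 0.32 for members and 0.23 for multi-exon genes, and between the WT replicates it was 0.13 and 0.09.

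Few intronless genes changed past the threshold. The edgeR quasi-likelihood test without a covariate called 0 members at an adjusted p under 0.05, where it called 0.00664% of the 15070 genes tested (1 gene). In that test 27 members had an unadjusted p under 0.05, 15 higher and 12 lower in KO, or 15.6% of members against 16.8% of all genes (8.14% higher and 8.69% lower), and the smallest adjusted p of a member was 0.267. DESeq2 without a covariate called 5 of the 123 members it tested (4.07%), where it called 4.08% of all genes, and limma-voom called 0. With the replicate number, which separates the sexes, as a term, edgeR called 3 members higher, where 1.01% of all genes were called higher, and 2 lower, where 2.2% were called lower. Library-total scaling and a robust dispersion estimate each left 0 of these 5 calls. Unless stated otherwise, log2 fold changes (KO minus WT) and adjusted p of single genes below are from edgeR with the replicate term, and medians of classes are from edgeR without it. Medians of the listed immediate-early genes, of copies and their parents, and of coding, long noncoding and pseudogene members minus host are from the fit with the replicate term.

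The direction was split among members. Both KO libraries lay above both WT libraries for 54 members, or 31.2%, where 27.9% of all genes tested did so. Both lay below for 47 members, or 27.2%, where 28.4% of all genes did so. These shares over all members lie near the background. Among the 116 coding members 35.3% lay above and 19.8% below, beside 31.2% and 29.4% of multi-exon coding genes. This difference was not tested. The female and male pairs of libraries had opposite signs for 27.8% of all genes and for 47 members. The median log2 fold change was 0.05 for the 173 members, 0.01 for the multi-exon genes and -0.00 for all genes tested. The class medians ran in different directions, from -0.76 for 19 small structured RNAs and -0.21 for 20 long noncoding RNAs to 0.07 for 116 coding genes and 0.48 for 18 pseudogenes. Scaling by library totals (with the replicate term) put the median of all genes at -0.09 and turned those of all members and of coding members to -0.04 and -0.01, while small RNAs (-0.84), long noncoding RNAs (-0.29) and pseudogenes (0.41) kept their sign. Of the members 27 carry clone names, 17 of them on chromosome 17, which held 23 members in all.

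**Figure D1:**
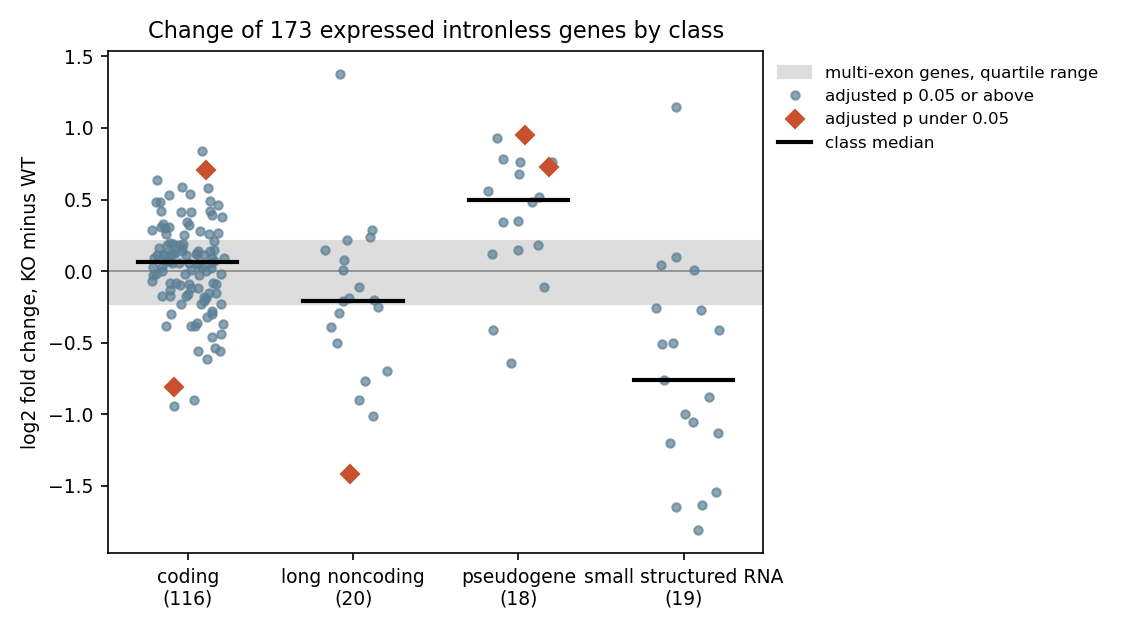
Log2 fold change (KO minus WT, edgeR with the replicate term) of each expressed intronless gene, by class; diamonds are the 5 genes with an adjusted p under 0.05, black bars are class medians, and the grey band runs from the lower to the upper quartile of the multi-exon genes. Coding genes centre near 0, pseudogenes mostly lie above and small structured RNAs mostly below.

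Cenpb rose and Lpar6 fell among the 116 coding members. Cenpb (ENSMUSG00000068267, chr2:131175182-131180067, minus strand) encodes the centromere protein that binds the CENP-B box of satellite DNA. It measured 77.8 and 87.5 CPM in WT against 144.9 and 125.8 CPM in KO. Both KO libraries were higher than both WT libraries, and the log2 fold change was 0.71 ± 0.15 (SE; edgeR adjusted p = 0.0336). Without KO replicate 1 the change was 0.61 (adjusted p = 0.0218, no covariate). Without WT replicate 1 or 2 it was 0.63 and 0.80 and did not pass (adjusted p = 0.813 and 0.648, no covariate). Cenpb lies within the span of Spef1 on the same strand and shares at least 20 exon bases with it. Spef1 had 16.54 and 18.63 CPM in WT against 26.15 and 20.78 CPM in KO. Its log2 fold change was 0.41 and did not pass (adjusted p = 0.228).

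Lpar6 (ENSMUSG00000033446, chr14:73237895-73243294, plus strand) encodes a receptor for lysophosphatidic acid and lies inside Rb1 on the opposite strand. It gave 173.1 and 166.3 CPM in WT against 75.9 and 122.5 CPM in KO. Both KO libraries were lower, KO replicate 1 more so, and the log2 fold change was -0.81 ± 0.18 (SE; edgeR adjusted p = 0.0365). Without KO replicate 1 it was -0.46 (adjusted p = 0.0242, no covariate). Leaving out WT replicate 1 or 2 gave -0.74 and -0.80, short of the threshold (adjusted p = 0.705 and 0.682, no covariate). Rb1, the retinoblastoma gene, had a log2 fold change of 0.05 (adjusted p = 0.885). Lpar6 and Rb1 share at least 209 exon bases, and counting did not use strand, so reads there cannot be assigned to either.

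Another single-exon receptor gene, S1pr4, a lymphocyte receptor for sphingosine 1-phosphate, did not pass, with 33.04 and 31.5 CPM in the WT libraries, and 35.5 and 37.2 CPM in KO (log2 fold change 0.17, adjusted p = 0.549).

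**Figure D2:**
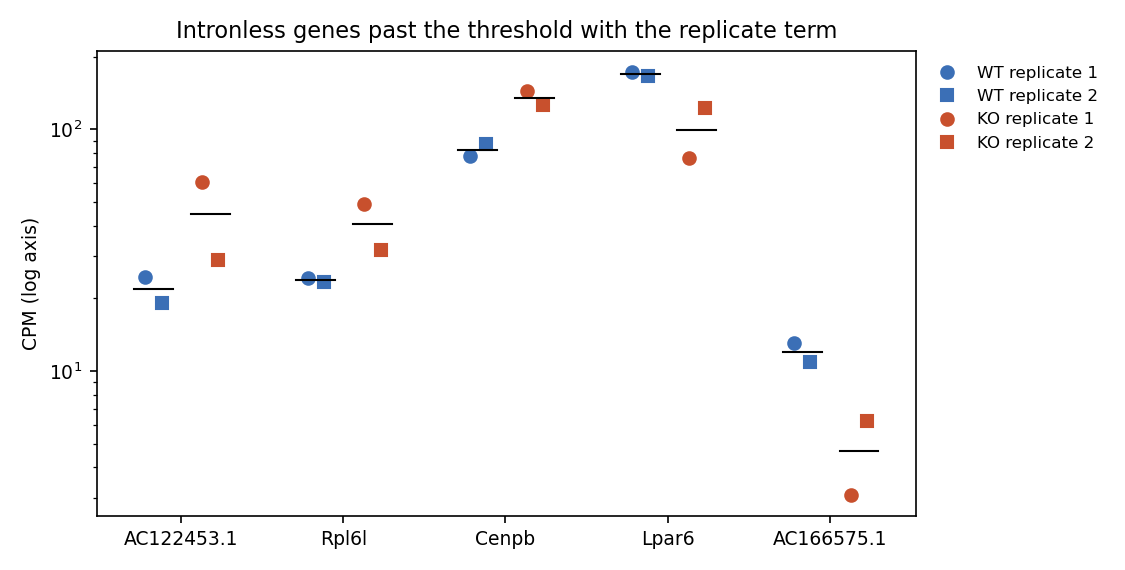
CPM (log axis) of the 5 expressed intronless genes with an edgeR adjusted p under 0.05 with the replicate term, per library; circles are female and squares male libraries, and bars are means of 2. In each gene the KO libraries do not overlap the WT libraries, and KO replicate 1 lies farther from WT than KO replicate 2 in each.

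Immediate-early genes, which are induced within minutes of stimulation, gave no call. Jund, an AP-1 subunit, gave 160.7 and 173.2 CPM in WT against 174.2 and 172.9 CPM in KO. Ier5 had 55.1 and 55.6 CPM in the WT libraries, and 53.0 and 56.5 CPM in KO, and Ier2 had 28.1 and 27.8 CPM in WT against 28.6 and 28.5 CPM in KO. The log2 fold changes of these 3 genes lay between -0.02 and 0.06. Jun, the founding AP-1 subunit, was lower in both KO libraries, at 17.1 and 13.7 CPM in WT and 10.8 and 9.995 CPM in KO (log2 fold change -0.56, adjusted p = 0.133). Of 21 listed immediate-early genes with introns 18 were tested, 0 passed in either direction with edgeR, and their median was -0.04. Btg2, the highest of them by CPM, had a log2 fold change of 0.08, Zfp36 one of -0.35 and Egr1 one of 0.13. Junb and Arf6 were not members because their rows hold 3 and 2 exon entries, and Hspa1a, Hspa1b and Rhob had only 24, 52 and 54 counts.

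Single-exon transcription factor genes gave no call. Sox4, a SOX factor of T cell progenitors, had a mean level of 186.8 CPM per kb, below only Hnrnpa0 and Pcbp1 among the members. It was measured at 778.0 and 742.6 CPM in WT against 1243 and 819.1 CPM in KO. Both KO values were higher, but KO replicate 1 far more so, and the log2 fold change of 0.41 did not pass (adjusted p = 0.295). Cebpb and Olig3 ranged from 1.72 to 3.70 CPM and had log2 fold changes of -0.38 and 0.03, with overlapping groups. The 3 members of the histone and nucleosome class were higher in both KO libraries, beside 27.9% of all genes, and none passed. H2afx, the DNA-damage-marking histone variant, had 182.2 and 199.5 CPM in the WT libraries, and 231.6 and 225.2 CPM in KO (log2 fold change 0.26, adjusted p = 0.348). Tspyl1 and Tspyl3, relatives of nucleosome assembly proteins, had log2 fold changes of 0.19 and 0.25.

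The 12 members for RNA metabolism and translation had a median log2 fold change of 0.14, with 7 higher and 3 lower in both pairs of female and male libraries, beside 35.5% and 36.7% of all genes. Classes were sorted by symbol and biotype, and this one includes Thap11, a THAP-domain factor gene (log2 fold change 0.18). Hnrnpa0, an RNA-binding protein gene, had the highest level per length of the members, 347.5 CPM per kb, with 969.2 and 955.2 CPM in WT and 813.8 and 984.6 CPM in KO. Its groups overlapped, with a log2 fold change of -0.10. Pcbp1, which binds poly(C) RNA, had a log2 fold change of -0.07, and Utp3, a ribosome assembly factor, one of 0.20. Rps27rt, a retrocopy of a ribosomal protein gene named here after its value was seen, was measured at 41.2 and 41.9 CPM in WT against 71.2 and 55.2 CPM in KO. Both KO values were higher, and its log2 fold change of 0.59 just missed the threshold (adjusted p = 0.0523). Eif3j2, likewise named after its values were seen, is 99.4% identical to Eif3j1. It separated by replicate number rather than genotype, at 7.17 and 5.20 CPM in WT and KO replicate 1 and at 1.90 and 1.62 CPM in replicate 2.

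The other abundant coding members gave no call. Purb, a single-strand DNA-binding protein gene, gave 251.8 and 238.9 CPM in WT against 372.8 and 246.9 CPM in KO, so that only KO replicate 1 stood clear (log2 fold change 0.31). Hexim1, an inhibitor of the transcription elongation factor P-TEFb, had a log2 fold change of -0.23, and Pigm, a mannosyltransferase of GPI anchor synthesis, one of -0.38. For both genes the KO libraries were lower without overlap. Klhl9, a ubiquitin ligase adaptor, had 85.8 and 90.9 CPM in the WT libraries, and 153.1 and 105.8 CPM in KO (log2 fold change 0.53, adjusted p = 0.0944). Fbxl14, an F-box protein gene, had a log2 fold change of 0.09, Otud1, a deubiquitinase gene, one of -0.08, and Irf2bp1, a corepressor gene, one of 0.07. Kcna3, the voltage-gated potassium channel of T cells, was measured at 196.3 and 152.4 CPM in WT against 174.2 and 153.6 CPM in KO, with overlapping groups. Cldn4, a tight-junction claudin, had a log2 fold change of 0.41, Rap2b, a small GTPase, one of 0.42, and Chmp1b, an ESCRT-III subunit, one of 0.12, all short of the threshold. Tmem203, Zfp830 and Zcchc3 had log2 fold changes of 0.26, 0.03 and 0.42. The adjusted p was 0.135 for Cldn4, 0.178 for Rap2b and 0.650 for Chmp1b.

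Most small structured RNA genes had lower values in KO. Their summed share of counts was 0.00636% and 0.00521% in WT and 0.00375% and 0.00437% in KO. Both KO libraries lay below both WT libraries for 13 of 19, beside 28.4% of all genes, and above for 1. No single member passed with edgeR. The median of -0.76 became -0.51 without KO replicate 1. Of the 19 genes 6 would have missed the minimum of 100 counts at their KO level alone, and 0 at their WT level alone, so the count and median of this class describe the chosen members and support no direction. The 3 with 400 or more counts, Mir142b, Mir5125 and Mir6999, had log2 fold changes of -0.26, -0.27 and 0.04. Of the 19 genes 18 are shorter than the 250 to 300 bp fragments selected for sequencing, and the protocol enriched polyadenylated RNA, so trimmed small RNA and unspliced or partly processed host transcripts cannot be told apart in these counts.

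All 6 snoRNA members were lower in both KO libraries, beside 28.4% of all genes. Snord72 had 49 and 52 counts in WT and 3 and 32 in KO, so that its difference lay largely in KO replicate 1 (adjusted p = 0.188). Snora31, an H/ACA snoRNA, gave 4.77 and 3.53 CPM in WT against 2.03 and 2.87 CPM in KO. Snord104 had 2.62 and 2.33 CPM in the WT libraries, and 0.970 and 1.43 CPM in KO. Rnu73b was measured at 1.27 and 1.55 CPM in WT against 1.01 and 0.972 CPM in KO. Snord58b, which lies in an intron of Rpl17, measured 2.53 and 2.33 CPM in WT against 0.353 and 1.11 CPM in KO. Its log2 fold change of -1.81 ± 0.48 (SE; edgeR adjusted p = 0.0592) was the lowest of all members. The 6 genes had a median of -1.16, and of -0.65 without KO replicate 1.

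The host genes of these snoRNAs had positive log2 fold changes. For 5 of 5 snoRNAs inside introns, the log2 fold change of the snoRNA was negative, from -1.81 to -0.50, and that of the host was positive. Rpl37, which holds Snord72 and encodes a ribosomal protein, was at 139.7 and 132.6 CPM in WT, against 269.8 and 171.8 CPM in KO (log2 fold change 0.66, adjusted p = 0.0533). Tpt1, which holds Snora31 and encodes the translationally controlled tumour protein, had 1488 and 1489 CPM in the WT libraries, and 3810 and 1999 CPM in KO (log2 fold change 0.89, adjusted p = 0.0982). Rpl17 and Rps3a1 had log2 fold changes of 0.73 and 0.54. No host passed the threshold. In all 5 pairs the ratio of snoRNA to host CPM was lower in both KO libraries than in both WT libraries. The snoRNA genes were chosen by the same minimum, which 6 of the 19 small RNA genes would have missed at their KO level alone. The signs and ratios of these pairs thus support no direction.

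**Figure D3:**
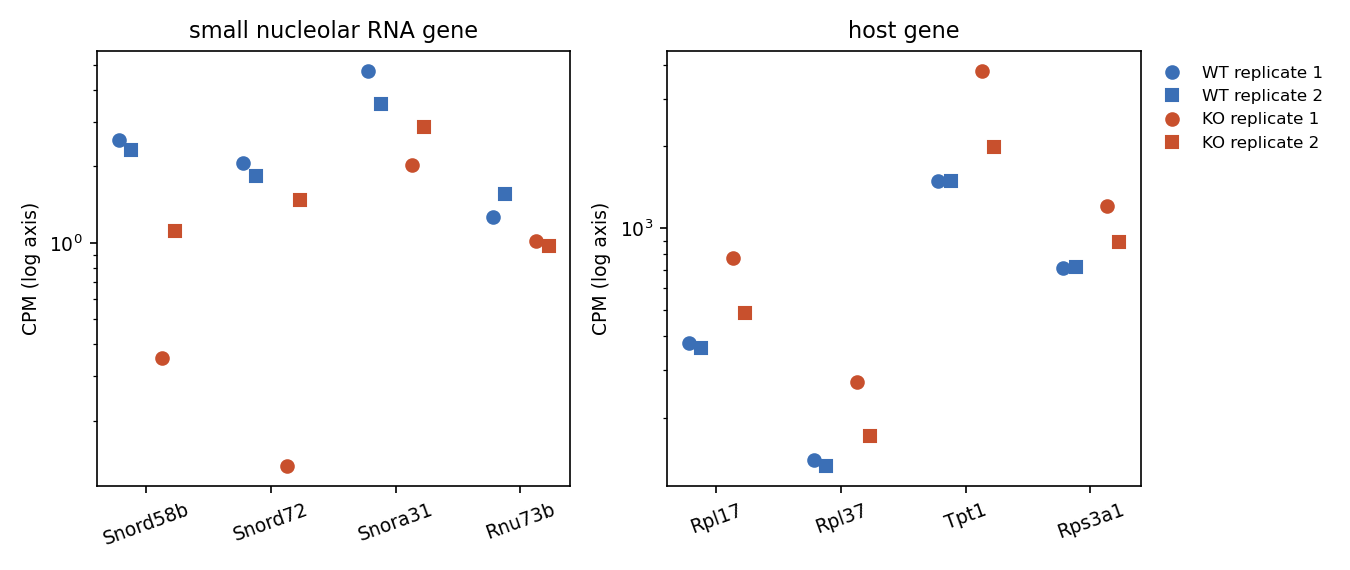
CPM (log axes) of 4 snoRNA genes that lie inside introns (left) and of their host genes (right), per library; circles are female and squares male libraries. The snoRNA genes lie lower in both KO libraries and their hosts higher in both, with the wider gap in KO replicate 1, except that Rnu73b was about as low in KO replicate 2.

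Across the 14 small RNA genes that lie inside introns of a tested host and share no exon base with any gene, the median was -0.93, and the median of member minus host was -0.94. The log2 fold change was lower for the small RNA gene than for its host in 12 of 14, and the ratio to the host was lower in both KO libraries in 11. The small RNA genes were chosen by the minimum on summed counts. Of the 19 in the class, 6 would have missed it at their KO level alone and 0 at their WT level alone. The medians and counts of member against host in this paragraph thus describe the chosen members and support no direction. Without KO replicate 1 the median difference was -0.73. Mir186, inside Zranb2, was measured at 2.19 and 2.01 CPM in WT against 1.10 and 0.740 CPM in KO, and KO replicate 2 was the lower (log2 fold change -1.20, adjusted p = 0.119). Zranb2, a splicing factor gene, had a log2 fold change of -0.43. Mir7-1, inside Hnrnpk, had a log2 fold change of -1.13 against -0.20 for the host, and Mir6973a, inside Ltb, the lymphotoxin beta gene, one of -1.63 against -0.07. The exceptions among the 14 were Mir6999 in Dgkz (0.04 against -0.36) and Mir8096, on the opposite strand of its host (0.01 against -0.40). A further 2 lie on the opposite strand inside a host without sharing its exons, but share exon bases with another gene. Both stood above that host, Mir142b at -0.26 against -1.35 for Mir142hg and Mir343 at -0.41 against -0.85 for Gm26852. With them 12 of 16 lay below their host, and the median difference was -0.82.

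**Figure D4:**
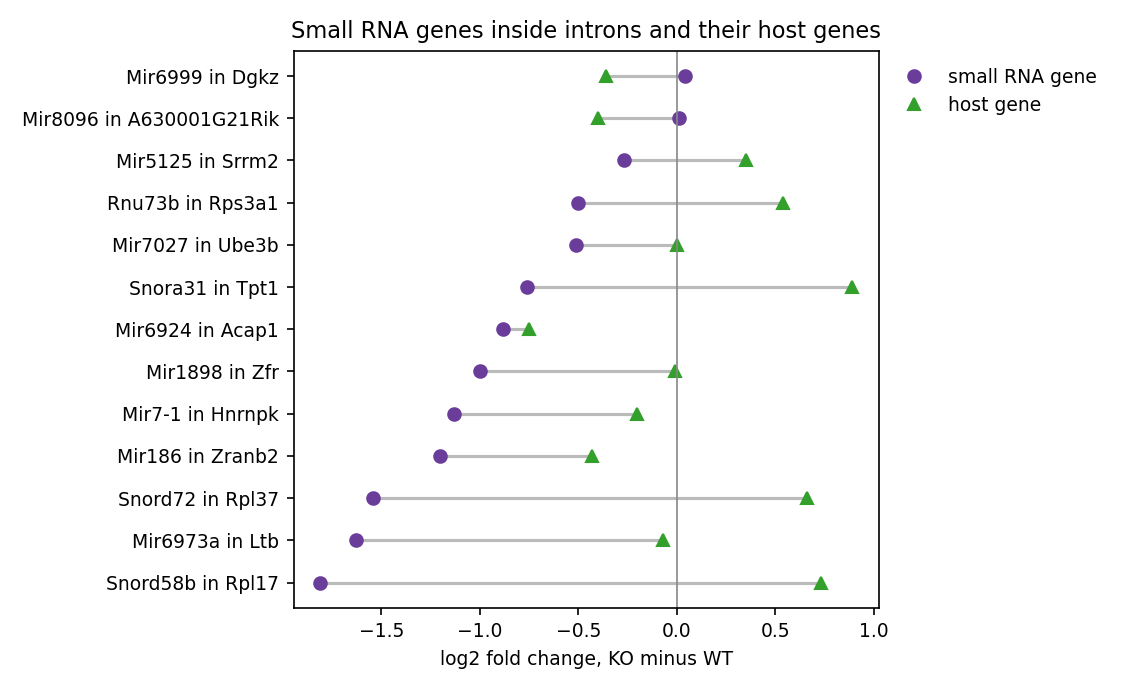
Log2 fold change (KO minus WT, edgeR with the replicate term) of 13 small RNA genes that lie inside introns and share no exon base with any gene (circles) and of their host genes (triangles), joined by a line. In 11 of the 13 the small RNA gene lies to the left of its host. The small RNA genes were chosen on counts summed over both genotypes, so this count supports no direction.

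The small RNA members highest by CPM had log2 fold changes closer to 0. Mir142b gave 12.3 and 7.58 CPM in WT against 9.08 and 7.17 CPM in KO, and shares bases with Mir142 on the opposite strand. It lies inside Mir142hg, the noncoding host of the blood-cell miRNA miR-142, which fell from 90.01 and 90.02 CPM to 36.3 and 34.2 CPM (log2 fold change -1.35, adjusted p = 0.00144). Mir5125, inside the splicing gene Srrm2, had a log2 fold change of -0.27. Rn7sk, the 7SK RNA that holds Hexim1 and P-TEFb together, had 1.65 and 2.54 CPM in the WT libraries, and 7.496 and 2.73 CPM in KO. KO replicate 1 was far higher and KO replicate 2 lay near WT (log2 fold change 1.15, adjusted p = 0.153). Rmrp, Rpph1 and Terc, other structured RNAs, had 0 counts in every library, and a count of 0 allows up to 0.139 CPM.

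The same comparison was made for the other members inside introns. The 16 coding members that lie in an intron without shared exon bases had a median log2 fold change of -0.00. Of the 11 with a tested host, 6 lay below and 5 above their host, with a median difference of -0.01. Long noncoding members in introns lay below their host in 5 of 5 cases, with a median difference of -0.42, and pseudogenes in 1 of 4, with one of 0.20. Of the 20 long noncoding members 4 would have missed the minimum on summed counts at their KO level alone, and 1 at its WT level alone. Their position below the host thus supports no direction. The 87 members that overlap no other gene had a median of 0.11, and the 44 that share exon bases with another gene one of 0.05.

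Long noncoding members were lower in both KO libraries in 8 of 20 cases, beside 28.4% of all genes, and higher in 2. Of the 20 genes 4 would have missed the minimum on summed counts at their KO level alone, and 1 at its WT level alone. The count and median of this class thus describe the chosen members and support no direction. The 7 with 400 or more counts had a median log2 fold change of -0.1. AC166575.1 (chr17:31567163-31568854, plus strand), inside an intron of the homeobox gene Pknox1 on the same strand, fell from 13.1 and 10.9 CPM to 3.09 and 6.25 CPM. Both KO libraries were lower (log2 fold change -1.42 ± 0.30, SE; edgeR adjusted p = 0.0336). Without KO replicate 1 the change was -0.94 (adjusted p = 0.0489, no covariate). It did not pass without WT replicate 1 (adjusted p = 0.650, no covariate) or WT replicate 2 (adjusted p = 0.605), and Pknox1 itself had one of 0.04. AC144860.1, also on chromosome 17, was measured at 11.0 and 11.0 CPM in WT against 3.92 and 10.1 CPM in KO, lower mainly in KO replicate 1 (adjusted p = 0.162). The imprinted transcripts Peg13 and Kcnq1ot1 had log2 fold changes of 0.08 and 0.22, with overlapping groups.

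Pseudogene members were higher in KO in 10 of 18 cases without overlap, beside 27.9% of all genes, and lower in 3. Their summed share of counts was 0.0110% and 0.0103% in WT and 0.0180% and 0.0132% in KO. The median of 0.48 became 0.28 without KO replicate 1. The rise passed the threshold for AC122453.1 and Rpl6l, both copies of ribosomal protein genes.

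AC122453.1 (chr17:82409935-82410819, minus strand) matched Rpsa, the gene of ribosomal protein SA, at 98.9% over 885 aligned bases, with 10 mismatches and 0 gaps. It rose from 24.6 and 19.1 CPM to 60.6 and 28.9 CPM (log2 fold change 0.95 ± 0.18, SE; edgeR adjusted p = 0.0274). KO replicate 1 was far the higher, and without it the change was 0.41 and did not pass (adjusted p = 0.182, no covariate). Without KO replicate 2 it was 1.47, and without WT replicate 1 or 2 it did not pass (adjusted p = 0.506 and 0.764, no covariate). Rpsa gave 679.0 and 658.3 CPM in WT against 1515 and 841.6 CPM in KO (log2 fold change 0.76, adjusted p = 0.0961). Rpl6l (chr10:111125851-111126721, plus strand) matched Rpl6 at 98.7% over 871 bases, with 11 mismatches. It rose from 24.2 and 23.5 CPM to 49.3 and 31.8 CPM (log2 fold change 0.73 ± 0.17, SE; edgeR adjusted p = 0.045). Without KO replicate 1 the change was 0.42 (adjusted p = 0.0664, no covariate), and without WT replicate 1 or 2 it did not pass either (adjusted p = 0.682 and 0.754). Rpl6 had a log2 fold change of 0.56 (adjusted p = 0.155).

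How closely copy and parent match is seen in the 60 bases of the parent's coding sequence with the most differences, given from GENCODE M21 transcripts with the differing bases in capitals. The Rpl6l window differs from Rpl6 at 6 bases and the AC122453.1 window from Rpsa at 2. Reads without a differing base cannot be assigned to copy or parent, so the values of these copies are uncertain.
Rpl6l: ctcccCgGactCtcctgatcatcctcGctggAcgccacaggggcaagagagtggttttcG
Rpl6: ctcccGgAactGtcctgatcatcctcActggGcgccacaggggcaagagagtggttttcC
AC122453.1: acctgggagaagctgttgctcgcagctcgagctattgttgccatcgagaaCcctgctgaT
Rpsa: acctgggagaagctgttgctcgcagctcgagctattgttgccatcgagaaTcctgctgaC

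The other intronless copies were read beside their parents. By BLASTN 22 members matched a tested multi-exon coding gene at 80% identity or more over at least 90% of their length, limits chosen after the values were seen. Copy and parent had the same sign in 15 of 22. For the 7 copies with a ribosomal protein parent the median log2 fold change was 0.73 for copies and 0.54 for parents. The value was above 0 for the parent in 7 of 7 cases and for the copy in 6 of 7. Rps3a2 and Rps3a3 share the parent Rps3a1, and AC119957.1 and Rps27rt share Rps27, so these are not independent. AC119957.1, 85.4% identical to Rps27, was the exception at -0.41 against 0.51. AC122861.1 was lower together with its parent Nop56, a snoRNP core protein gene (-0.64 and -0.57), and Prkcz2 was higher than WT in both KO libraries while its parent Prkcz was not (0.48 and -0.15). These copies had from 0.0689% to 174% of the parent's CPM. Of the 22 copies 2 passed, and 0 parents did.

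**Figure D5:**
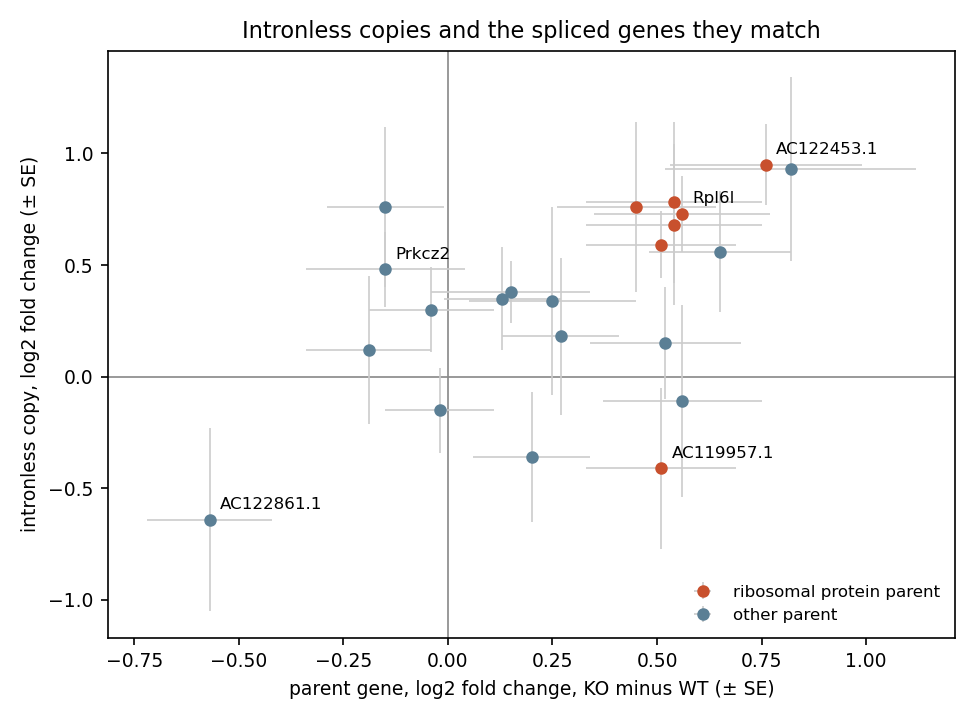
Log2 fold change (KO minus WT, edgeR with the replicate term, ± SE) of 22 intronless copies against that of the multi-exon gene each matches. Copies of ribosomal protein genes lie in the upper right, apart from AC119957.1.

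RefSeq promoters of 300 bases, from 250 before to 50 after the start (GRCm38.p6), were found for 95 members, 91 of them coding. Motifs were searched on both strands as exact letters, and none contains another. The TATA box TATAAA occurred in 6 of 95 member promoters (6.3%), beside 6.7% of multi-exon gene promoters and 13.6% of all promoters. The GC box GGGCGG occurred in 56.8% against 63.4% of multi-exon gene promoters, and the CCAAT box CCAAT in 45.3% against 37.9%. The cyclic AMP response element TGACGTCA occurred in 6 member promoters (6.3%) against 3.2%, and the ETS core CCGGAAG in 23.2% against 19.1%. The AP-1 letters TGACTCA occurred in 5.3% against 3.4%, CAGCTG in 16.8% against 14.8%, and CACGTG in 8.4% against 10.1%. Median GC content was 60% for member promoters and 61% for multi-exon gene promoters. The Cenpb promoter held the GC box and the Lpar6 promoter CAGCTG.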

How the data were processed

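The deposited table holds raw fragment counts per gene. The submitters' processing notes list HISAT2, DESeq2, Trim Galore 0.5.0 and featureCounts 1.6.4, with GRCm38 as the build; per the file headers, featureCounts 1.6.3 counted paired fragments over exons of Ensembl 98 without strand and without options for multi-mapped or multi-gene fragments. Gene length in bases is another deposited column, used for levels per kilobase. Symbols and biotypes came from GENCODE M21 (55154 IDs matched).

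Counts were tested in R 4.3.3 with edgeR 4.0.16 (filterByExpr, 15070 genes including all 173 members; TMM; quasi-likelihood F test; Benjamini-Hochberg over all genes tested, threshold 0.05), without a covariate and with the replicate number. The residual degrees of freedom were 2 and 1. DESeq2 1.42.0 and limma 3.58.1 (voom) were alternatives, as were other scalings, filters and left-out libraries. The scripts were tested on simulated data. CPM use TMM-scaled library sizes; differences within a pair are log2 CPM with a prior count of 2. Intervals and floors of 3 counts cover counting error only.

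Deviations of same-numbered libraries from their group means correlated at 0.472, but the labels do not say that the number marks a shared litter or day. The libraries of a genotype differ in sex and so come from different mice, though the labels name no animals. The p-values reflect library-to-library spread, in which differences between mice and technical differences cannot be told apart. Without a covariate this spread also holds the difference between the sexes. The members and gene lists were chosen with earlier results of these data known. Named genes were Chaf1b, called members with at least 5 CPM (up to 10 a direction), and the 3 highest by CPM in each role class. The 15 highest of all members and the 5 highest inside another gene were also named. So were a fixed set of intronless genes and the 3 highest immediate-early genes with introns. Other members named, such as Snord58b, Rn7sk and AC119957.1, were not fixed by this rule. Only Rps27rt and Eif3j2 are marked where they appear as named after their values were seen. Results for some named members and a host gene are not reported here.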

Additional observations from a re-analysis of the deposited data

Results flagged for a closer look

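Of the 43 named members 11 had opposite signs in the female pair (replicate 1) and the male pair (replicate 2), each a difference of 1 KO and 1 WT library in log2 CPM, where 27.8% of all genes did so. The difference between the pairs was not tested. Female minus male, it was -1.17 for Mir6999 (-0.54 and 0.62 for female and male), -0.93 for Cebpb (-0.85 and 0.08) and -0.46 for Dnajc30, a mitochondrial DnaJ protein gene (-0.10 and 0.36). It was 0.50 for Olig3 (0.28 and -0.22) and 0.38 for Peg13 (0.27 and -0.11). Smaller differences were found for Hnrnpa0 (-0.30), Chmp1b (-0.27), Kcna3 (-0.18), Ier5 (-0.08), Jund (0.12) and Zfp830 (0.06); in the last 2 the male pair was below 0 by less than 0.01. None of these genes passed edgeR's test with the replicate term. Groups of 2 libraries are too small to look for a library that stands apart in a single gene.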

How the results depend on the processing

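Without a covariate edgeR called 0 members, and the count was 15 without a filter on low counts (8.67%, beside 5.63% of all genes), 5 with DESeq2 (beside 4.08%) and 5 with the replicate block (2.89%, beside 3.21%). Leaving out 1 library gave 0 to 48 calls, the most without KO replicate 2 (27.7%, beside 32.3% of all genes). Without KO replicate 1 it was 4 (2.31%, beside 3.31%), and without either WT library 0, where 2 and 1 of all genes were called; the lone library of a genotype is then assumed to vary like the others. With the replicate term, edgeR called 5 members, and 20 without a filter (11.6%, beside 5.85% of all genes), 0 with library totals, 0 with a robust dispersion and 0 with no replicate block. DESeq2 size factors, a 1 CPM filter, DESeq2 and limma-voom gave 4 or 5. The fit with the replicate term leaves no residual degree of freedom once a library is left out.

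The members' median of 0.05 was -0.03 with library totals, which moved the median of all genes to -0.09 with the replicate term, and 0.02 to 0.05 with 1 library left out. It was -0.02 with merged exon blocks as the rule (241 genes), 0.08 at 400 counts or more, 0.07 for coding members and 0.11 for members overlapping no other gene. With the replicate block it was 0.05. The pseudogene median was 0.28 to 0.66, the small RNA median -1.03 to -0.51, the long noncoding median -0.27 to -0.20 and the median of small RNA minus host -1.27 to -0.73 with 1 library left out. With library totals the long noncoding median was -0.29. The KO minus WT difference in the share of counts was 0.0089 percentage points, -0.055 with merged exon blocks, 0.019 of autosomal counts and 0.00087 to 0.017 with 1 library left out. The cause of these shifts was not tested. Including 2 small RNA genes that share exon bases with another gene put the host difference at -0.82. Settings for the class medians and the host difference were chosen after seeing the data. Because members were chosen on summed counts, the small RNA and long noncoding medians and the host difference support no direction under any of these settings.

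None of the 43 named members was called in opposite directions by any of up to 12 settings; 16 had another sign under at least 1 setting without a call, the largest of them at 0.42 in size, and 14 without a call passed under at least 1 setting. With 2 libraries per genotype and small RNA members at 0.13 to 12 CPM, small differences were not detectable at this depth.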
